A study of Mus musculus with 8 samples.

Results

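Long intergenic noncoding RNAs (lincRNAs) were compared between 5 libraries of tumour-associated microglia and macrophages (TAMs) and 3 libraries of normal cortex microglia. A gene was taken when the deposited table gave it the biotype lincRNA, it lay outside chromosomes X and Y, and it reached 2 TPM (transcripts per 1000000) in at least 3 of the 8 libraries. This gave 218 of the 38026 genes listed, out of 1797 lincRNA rows, of which 1692 lay outside X and Y. Another 9 lincRNAs of X and Y that reached the threshold were left out. The members were thus selected on the same TPM values that are described here, and that each is expressed in some library is the rule and not a result.

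The study asked how gene expression in microglia and macrophages of medulloblastoma, a tumour of the cerebellum, differs from that of normal microglia. All mice were of the strain C57BL/6. The TAM libraries, replicates 1 to 5, came from tumour tissue of mice aged 68, 90, 61, 66 and 62 days after birth, and the 3 microglia libraries from cerebral cortex at 60 days. In both groups the tissue was digested with papain, depleted of myelin and captured with magnetic beads against CD11b, an integrin subunit of microglia, macrophages, monocytes and granulocytes, and total RNA was taken with Trizol. The sources used here do not give the alleles that drive the tumour, and whether animals were pooled is not stated. Tumour, brain region, cell origin and age, which was above 60 days in every TAM library, differ together between the groups and cannot be told apart. The 5 TAM libraries differ in mouse age and so come from different mice. For the 3 microglia libraries, all at 60 days, the labels do not say whether the animals were separate, so their spread may be technical, and p-values measure only the spread between these libraries.

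lincRNAs are transcribed by RNA polymerase II, mostly spliced and polyadenylated, and carry no long conserved reading frame. Some act in the nucleus as scaffolds, such as Neat1 in paraspeckles and Malat1 in nuclear speckles. Others serve as precursors from which microRNAs or small nucleolar RNAs (snoRNAs) are cut, and many start close to a coding gene and are transcribed away from it.

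Among the members are precursors of microRNAs. Mature microRNAs of 6 hosts whose levels are described below are shown with the seed, bases 2 to 8, in capitals. The sequences and positions are those of RefSeq on GRCm38.p6, read 5′ to 3′.
miR-142a-5p (Mir142hg, plus strand, chr11:87756867-87756887): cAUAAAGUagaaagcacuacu
miR-142a-3p (Mir142hg, plus strand, chr11:87756903-87756925): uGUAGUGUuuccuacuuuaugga
miR-9-5p (Gm3764, plus strand, chr3:88215613-88215635): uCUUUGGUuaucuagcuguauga
miR-9-5p (AI854517, plus strand, chr7:79505279-79505301): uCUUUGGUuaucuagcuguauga
miR-17-5p (Mir17hg, plus strand, chr14:115043684-115043706): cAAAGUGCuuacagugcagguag
miR-20a-5p (Mir17hg, plus strand, chr14:115044183-115044205): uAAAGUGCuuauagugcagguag
miR-19a-3p (Mir17hg, plus strand, chr14:115044048-115044070): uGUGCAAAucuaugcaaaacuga
miR-19b-3p (Mir17hg, plus strand, chr14:115044358-115044380): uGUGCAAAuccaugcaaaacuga
miR-101a-3p (E130102H24Rik, minus strand, chr4:101346957-101346977): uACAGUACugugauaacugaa
miR-219a-1-3p (Gm26940, minus strand, chr17:34025010-34025031): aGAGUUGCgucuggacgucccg
The member hosts of miR-9-5p shown here lie on chromosomes 3 and 7 and give the identical mature sequence. Hosts that are no members were not searched. The pairs miR-17-5p with miR-20a-5p and miR-19a-3p with miR-19b-3p each share a seed. The libraries report the long host RNA, and no mature microRNA was measured.

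The members were mostly low. Their median level, with each level taken midway between the TAM mean and the microglia mean, was 3.83 TPM with quartiles of 2.51 and 8.24, and 176 lay below 10 TPM. The median of the 12774 tested coding genes, which had to reach only 1 TPM in at least 3 libraries, was 14.9 TPM. Only 5 members reached 100 TPM. Raising the threshold to 4 TPM would leave 119 members, and lowering it to 1 TPM would give 381. Just inside it stood Gm26885, AI854517 and Mir17hg, with a third-highest library of 2.00, 2.01 and 2.03 TPM. Just outside were 9330104G04Rik at 2.00, Gm26838 at 1.99 and D630029K05Rik at 1.99 TPM.

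Most members carry provisional names, 117 of them of the form Gm and a number and 64 ending in Rik. In the GENCODE M21 annotation 213 of the 218 were found, 173 still as lincRNA, 20 as antisense, 8 as transcripts of a bidirectional promoter and 3 as protein-coding (6330403K07Rik, D830044I16Rik and Platr17). Their longest annotated transcripts had a median of 1615 nucleotides, from 105 in Gm26940 to 20771 in Neat1, and 20 had 1 exon and 91 had 2. Intergenic described them only in part: 58 overlapped a coding gene, 49 of these on the opposite strand only, 32 started within 1 kb of a coding start and ran away from it, and 87 started within 10 kb of one. The sources used here do not say whether the libraries kept strand, so reads of an overlapping pair cannot be told apart.

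Of the members 12 had a near-identical copy elsewhere, at 95% identity or more over at least 80% of the transcript, and reads of such copies can be assigned to either. Gm26825 matched the heat shock chaperone gene Hspa8 at 99.4%, Gpr137b-ps matched Gpr137b at 99.5% and Gm13166 matched Gm13236 at 99.7% and the zinc finger gene Zfp991 at 97.9%. Among the others, Gm26880 matched Gm42031 at 96.5%, Gm26905 matched Gm47578 at 99.2% and 1810014B01Rik matched 1190007I07Rik at 98.0%. Meg3 matched Gm27000 at 99.5% and Gm12840 matched Gm26809 at 97.5%. Values of all 12 are uncertain for that reason. Only those of Gm26825, Gpr137b-ps and Gm13166 are given below with the copy's values.

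Across the whole table correlations of log2(TPM + 1) ranged from 0.921 to 0.965 among TAM libraries, from 0.942 to 0.973 among microglia libraries and from 0.781 to 0.882 across groups. Markers of resting microglia summed to 3119 to 8659 TPM in TAM libraries and 16180 to 19270 TPM in microglia, and of the 11 tested 7 fell and none rose. The endothelial list summed to 16.6 to 104 TPM in TAM libraries and 659 to 2169 TPM in microglia (11 of 11 fell), the mural list to 7.84 to 31.2 and 423 to 1076 TPM (9 of 10 fell), the astrocyte list to 14.5 to 70.6 and 136 to 960 TPM (8 of 10 fell) and the oligodendrocyte list to 44.9 to 55.9 and 132 to 724 TPM (5 of 6 tested fell). Within microglia, replicate 1 had the lowest sum of each of these 4 lists. Every one of the 11 endothelial markers reached 1 TPM in some TAM library, and 3 of 10 mural, 2 of 10 astrocyte and 3 of 7 oligodendrocyte markers did not. Where the latter were tested, they passed the filter of 1 TPM in at least 3 libraries through the microglia alone, so nothing is read from their falls. A list of 20 early response genes, which tissue digestion can induce, summed to 3590 to 4944 TPM in TAM libraries and 14480 to 15410 in microglia, and 14 of the 20 fell. A cell division list summed to 172 to 300 TPM in TAM libraries and 37.1 to 52.9 TPM in microglia (15 of 15 rose). The neutrophil list summed to 246 to 659 and 433 to 480.5 TPM (4 of 8 tested rose, 0 fell). The lymphocyte list summed to 57.9 to 609 and 17.4 to 25.2 TPM (2 of 6 tested rose, 1 fell). Bub1, Kif11 and Klrk1 stayed under 1 TPM in every microglia library, so nothing is read from their rises. The part of other cells, of cell division and of digestion in the lincRNA values was not tested. In bulk libraries fewer cells of a type and less RNA per cell cannot be told apart.

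The members together made up between 0.319% and 0.439% of TPM in TAM libraries and between 0.383% and 0.460% in microglia libraries. Between 19.8% and 61.3% of that came from 2 genes, Yam1 and Gm26880. Yam1, annotated as Gm42418 in GENCODE M21 and lying beside Gm26917 on chromosome 17, was listed at 1592, 1904, 1781, 1300 and 414 TPM in TAM replicates 1 to 5 and at 989, 422 and 354 TPM in the microglia. TAM replicate 5 thus sat inside the microglia range and the other 4 above it. Gm26880 ran from 405 to 689 TPM in TAMs and from 456 to 486 TPM in microglia, overlapping.

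Without these 2 genes the other 216 summed to 0.139%, 0.179%, 0.163%, 0.148% and 0.260% of TPM in TAM replicates 1 to 5, against 0.237%, 0.369% and 0.315% in the microglia. TAM replicate 5 was above microglia replicate 1 and the other TAM libraries below all microglia. The number of members at 2 TPM or more was 100, 119, 120, 109 and 170 in the TAM libraries and 179, 207 and 200 in the microglia.

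**Figure D1:**
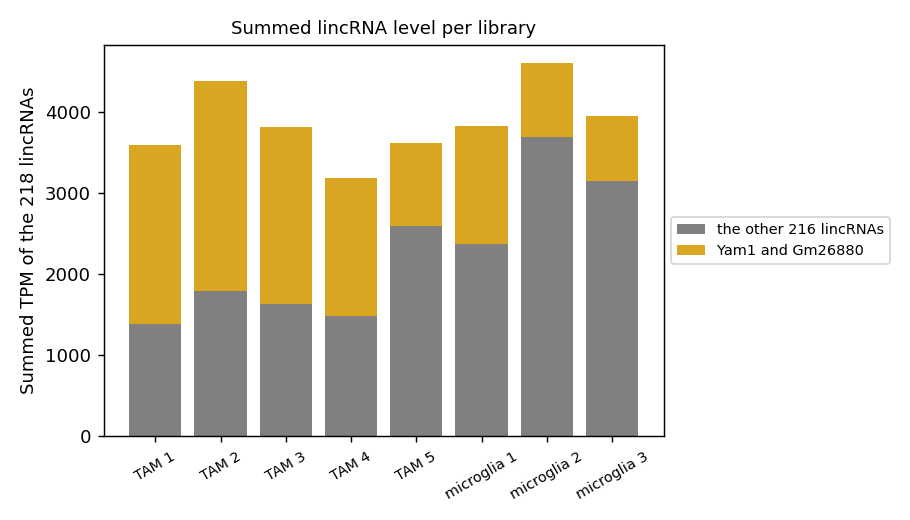
Summed TPM of the 218 lincRNAs (y axis) in each of the 8 libraries (x axis), stacked as Yam1 plus Gm26880 and the other 216. The grey part is 1389 to 2595 TPM in TAM libraries and 2374 to 3692 TPM in microglia, and TAM replicate 5 has the tallest grey part of its group.

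TAM replicate 5 had the highest TAM value in 159 of the 218 members, and in 107 after the libraries were rescaled. Microglia replicate 1 had the lowest microglia value in 168, and in 118 after rescaling. TAM replicate 5 also had the highest sum of endothelial markers in its group, 104 TPM against 16.6 to 47.3, and of markers of the granule neuron lineage, the lineage of origin of much medulloblastoma, 101 TPM against 36.6 to 44.1. The granule lineage list was no lower in the cortex microglia, at 99.4, 134.7 and 134.2 TPM, so its sum is no measure of tumour cells. Of its 9 tested genes 4 rose and 3 fell. Those that rose (Neurod1, Insm1, Barhl1 and Atoh1) passed the filter through TAM libraries alone, so nothing is read from their rises. The part of these markers in the lincRNA values was not tested.

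The comparison of TAMs with microglia was fitted with limma on log2(TPM + 1) over 15262 genes, and again after each library was divided by a factor, its median ratio to the average library, because the median log2 fold change of all genes was -0.65 on TPM and -0.04 on rescaled TPM. A member is said to have risen or fallen only where both fits called it that way at a Benjamini-Hochberg adjusted p of 0.05. The test is given for the 98 members at 2 TPM or more in all 3 microglia libraries and at least 3 TAM libraries. The other 120 entered the list mainly through the group in which they are high, so they are described by values with no test.

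Of the 98 members 9 rose and 24 fell in TAMs. The corresponding shares of all tested genes were 8.18% and 25.0%, and of the 10760 genes that met the same level requirement 8.26% and 18.8%, while the members' own shares were 9.18% and 24.5%. The counts of risen and fallen lincRNAs therefore lay near those of genes in general. On TPM alone 9 were higher and 55 lower (8.22% and 56.4% of all genes), and on rescaled TPM 20 were higher and 24 lower (24.5% and 25.0% of all genes). The median log2 fold change of the 98 was -0.72 on TPM and -0.13 rescaled. For 1 member, C330006A16Rik, the scales called opposite directions (log2 fold change -0.38 on TPM and 0.31 rescaled), and 24 were called on neither.

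Over all 218 members every TAM library was above every microglia library in 17 on TPM and 34 rescaled (7.97% and 23.8% of all tested genes), and below in 98 and 71 (49.7% and 24.7%). As shares of the members these were 7.80% and 15.6% above, and 45.0% and 32.6% below. The rule fixed which low genes could enter, so nothing is read from these counts.

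**Figure D2:**
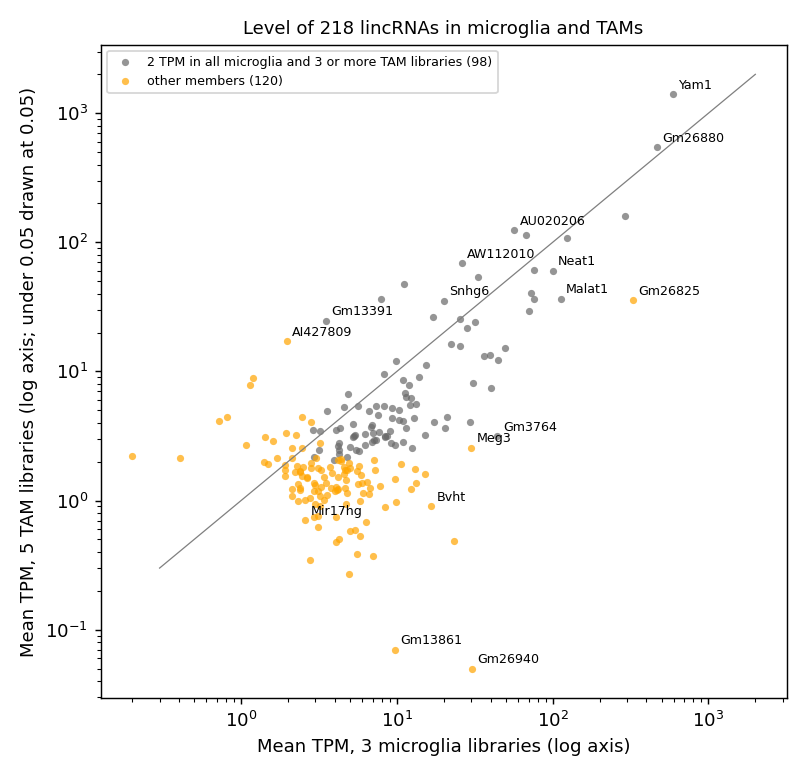
Mean TPM of each of the 218 lincRNAs in the 5 TAM libraries (y axis, log) against the 3 microglia libraries (x axis, log), with the line of equality. Grey points are the 98 members with a test and orange points the 120 without. Yam1 and Gm26880 lie at the top, and Gm26940, at 0 in all TAM libraries, is drawn at 0.05.

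Among the lincRNAs that rose, the change was widest in Gm13391, an unnamed gene of chromosome 2. It was at 20.5, 14.7, 22.2, 18.3 and 47.7 TPM in TAM replicates 1 to 5 and at 2.08, 4.31 and 4.12 TPM in the microglia. All TAM libraries were above all microglia libraries, and TAM replicate 5 stood apart at the top. The log2 fold change was 2.43 (SE 0.36, limma adjusted p = 0.000808) on TPM and 3.06 (SE 0.27) rescaled.

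AW112010 (chromosome 19, 11047617 to 11050566) is known as an RNA of activated macrophages and T cells that is induced in inflammation and has been shown to be translated. It was at 105, 89.1, 41.4, 34.8 and 74.7 TPM in TAMs and at 18.5, 34.5 and 25.6 TPM in microglia. The groups did not overlap, but TAM replicate 4 and microglia replicate 2 lay close together. The log2 fold change was 1.29 (SE 0.39, limma adjusted p = 0.0180) on TPM and 1.99 (SE 0.38) rescaled, and the call was lost when microglia replicate 1 or 3 was left out.

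AU020206 (chromosome 7, 75769762 to 75782099) was the most abundant of the lincRNAs that rose. It was at 123, 118, 109, 85.4 and 185 TPM in TAMs and at 48.0, 57.7 and 64.7 TPM in microglia. Every TAM library was higher than every microglia library, with a log2 fold change of 1.08 (SE 0.23, limma adjusted p = 0.00370) on TPM and 1.79 (SE 0.16) rescaled. AI662270 (chromosome 11) was at 29.3, 96.2, 49.9, 27.1 and 35.2 TPM in TAMs and at 8.90, 13.7 and 10.7 TPM in microglia. The groups did not overlap, and TAM replicate 2 was the highest. This library came from the oldest mouse. It also had the highest neutrophil list of the TAM libraries (659 TPM against 246 to 376). Its resting microglia list was the lowest of them (3119 TPM against 6724 to 8659). The part of age and of other cells in this value was not tested. The log2 fold change of AI662270 was 1.86 (SE 0.39, limma adjusted p = 0.00369) on TPM and 2.54 rescaled.

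The RNA 1810058I24Rik, which encodes a small mitochondrial protein also named Stmp1, was at 42.4, 55.2, 54.8, 46.2 and 69.0 TPM in TAMs and at 28.1, 38.8 and 32.9 TPM in microglia. No values overlapped, and the spread was small in both groups, with a log2 fold change of 0.66 (SE 0.17, limma adjusted p = 0.00980) on TPM and 1.37 (SE 0.09) rescaled. Snhg6, a host of the snoRNA Snord87, was at 26.4, 44.2, 34.5, 35.5 and 36.0 TPM in TAMs and at 19.1, 20.2 and 20.9 TPM in microglia. All TAM values were higher, by a log2 fold change of 0.77 on TPM (SE 0.16, limma adjusted p = 0.00310). The Snord87 row itself overlapped between groups, at 0 to 118 TPM in TAM libraries and 37.8 to 83.6 TPM in microglia.

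Gm26917, next to Yam1, was at 146, 122, 103, 107 and 87.3 TPM in TAMs and at 67.4, 65.0 and 69.7 TPM in microglia. It rose by a log2 fold change of 0.72 on TPM (SE 0.16, limma adjusted p = 0.00440) with no overlap of groups. RefSeq names the Yam1 gene Rn18s-rs5, a sequence related to 18S ribosomal RNA, and the part of ribosomal RNA in the values of both genes was not tested.

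The remaining 2 risen members have near-identical copies. Gm13166 was at 13.8, 23.6, 44.3, 38.9 and 59.9 TPM in TAMs and at 8.37, 5.65 and 9.59 TPM in microglia, and summed with its copies it was at 62.9 ± 34.8 (SD, n = 5) against 14.7 ± 2.79 TPM (SD, n = 3). For this sum the groups overlapped, with TAM replicate 1 at 16.4 TPM and the microglia libraries at 11.9, 14.7 and 17.5 TPM. Gpr137b-ps, a pseudogene of the lysosomal membrane protein gene Gpr137b, was at 18.4, 22.2, 32.6, 23.8 and 35.2 TPM in TAMs and at 14.9, 16.4 and 20.1 TPM in microglia. Its lowest TAM library lay within the microglia range. The call (log2 fold change 0.57 on TPM, SE 0.22, limma adjusted p = 0.0488) was lost in 6 of the 8 fits that left out 1 library, those without TAM replicate 3, 4 or 5 or any microglia replicate, while Gpr137b plus its pseudogene was at 184 ± 44.3 TPM in TAM libraries and 80.1 ± 4.63 TPM in microglia.

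**Figure D3:**
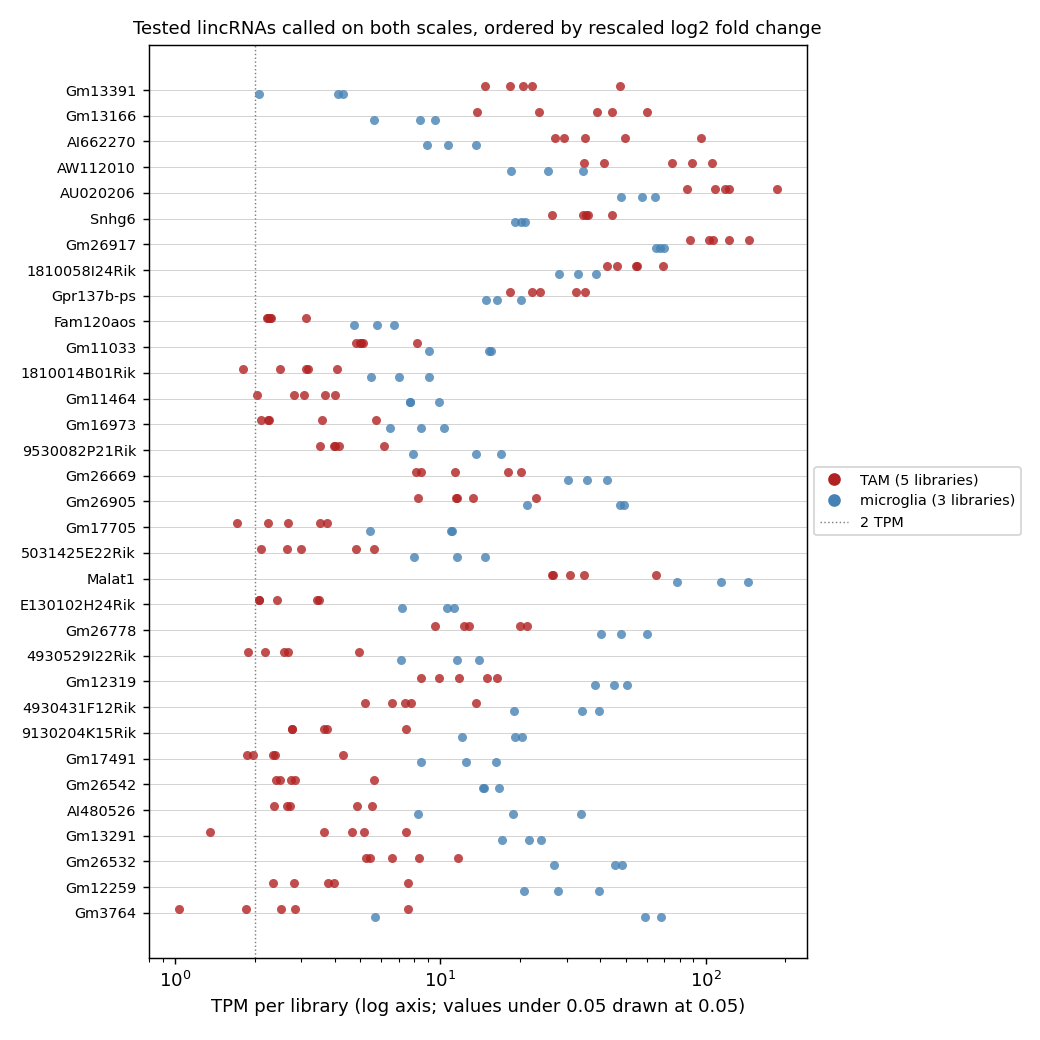
TPM per library (x axis, log) of the 9 lincRNAs that rose and the 24 that fell, ordered by rescaled log2 fold change, with 5 TAM libraries in red and 3 microglia libraries in blue. Gm13391 at the top separates the groups most widely, and in Gm3764 at the bottom the lowest microglia library lies inside the TAM range.

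Other lincRNAs were high in TAMs and under the level for a test in microglia. AI427809 (chromosome 4, 53261356 to 53270232), whose nearest coding start is that of the cholesterol exporter gene Abca1 at 110337 bases, was at 13.4, 16.4, 21.6, 14.8 and 19.5 TPM in TAMs and at 1.79, 1.56 and 2.54 TPM in microglia. 1190002F15Rik, also named Lockd, starts 8691 bases from the start of Cdkn1b, which encodes a cell cycle inhibitor. It was at 7.84, 8.92, 8.78, 6.83 and 7.20 TPM in TAMs and at 1.37, 1.30 and 0.736 TPM in microglia. For both, no microglia library came near the TAM values, which had little spread. Both entered the list through the TAM libraries and were named for their difference, so nothing is read from this separation.

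Gm11707 ran from 6.42 to 13.5 TPM in TAMs and from 0.622 to 1.73 in microglia, Gm14461 from 1.91 to 6.16 and 0.237 to 1.12, and Gm26714 from 1.24 to 7.40 and 0.709 to 0.957. 5830416P10Rik, annotated as Mirt1, was at 1.62, 2.29, 2.23, 1.35 and 3.20 TPM in TAMs and at 0.235, 0.555 and 0.421 TPM in microglia.

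The largest fall among tested members was that of Gm3764, the host of miR-9 on chromosome 3 shown above. It was at 1.85, 1.03, 2.83, 2.51 and 7.57 TPM in TAMs and at 5.68, 58.9 and 68.0 TPM in microglia. Microglia replicate 1 was far below the other microglia libraries and below TAM replicate 5, so the groups overlapped. The log2 fold change was -3.04 (SE 0.78, limma adjusted p = 0.00921) on TPM and -2.44 (SE 0.71) rescaled, and the call was lost without microglia replicate 2 or 3. AI854517, the miR-9 host on chromosome 7, had the same low library, at 0.391, 4.56 and 4.38 TPM in microglia and 0.157 to 2.01 TPM in TAMs. The astrocyte markers were also lowest in microglia replicate 1 (136 TPM against 960 and 648), as were the endothelial, mural and oligodendrocyte lists. The part of these markers in the values of the miR-9 hosts was not tested.

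Malat1 (chromosome 19, 5795690 to 5802672), the nuclear speckle RNA, was at 26.3, 34.8, 30.8, 26.6 and 65.1 TPM in TAMs and at 78.2, 145 and 115 TPM in microglia. No TAM library reached a microglia library. It fell by 1.63 on the log2 scale (SE 0.32, limma adjusted p = 0.00257) on TPM, and by 0.92 (SE 0.21) rescaled. Its neighbour Neat1, the paraspeckle scaffold, was at 38.4, 108, 48.1, 29.0 and 77.4 TPM in TAMs and at 41.8, 145 and 114 TPM in microglia. The groups overlapped, and neither scale called it (log2 fold change -0.71 on TPM, SE 0.51, limma adjusted p = 0.243, and 0.003 rescaled).

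Of the other falls, Gm12259 was at 2.34, 2.82, 3.77, 3.97 and 7.56 TPM in TAMs and at 20.7, 27.7 and 39.8 TPM in microglia, Gm26532 at 8.29, 6.59, 5.45, 5.28 and 11.7 and at 26.9, 48.3 and 45.7 TPM, and Gm12319 at 8.44, 15.0, 11.8, 9.94 and 16.3 and at 38.2, 50.4 and 45.2 TPM. In all 3 the groups stayed apart. They fell by 2.61, 2.30 and 1.81 on the log2 scale of TPM (limma adjusted p = 0.000381, 0.000355 and 0.000314) and by 1.98, 1.63 and 1.12 rescaled.

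Gm13291 fell by 2.11 (1.36 to 7.46 TPM in TAMs, 17.04 to 24.1 in microglia), AI480526 by 2.06 (2.36 to 5.54 and 8.25 to 33.9), Gm26542 by 1.99 (2.40 to 5.63 and 14.5 to 16.7), Gm17491 by 1.91 (1.88 to 4.29 and 8.50 to 16.3), 9130204K15Rik by 1.88 (2.76 to 7.44 and 12.1 to 20.3) and 4930431F12Rik by 1.81 (5.19 to 13.6 and 18.95 to 39.6), all on the log2 scale of TPM. None of these 6 had overlapping groups. Over the 24 that fell the rescaled log2 fold change ran from -2.44 to -0.41. Their groups did not overlap in 22 on TPM and in 20 rescaled, where 49.7% and 24.7% of all tested genes lay apart in that direction. These 24 were picked for having fallen, so nothing is read from those counts. Microglia replicates 2 and 3 carried much of the number of falls: 12 members fell on both scales without replicate 2 and 14 without replicate 3. The calls lost without replicate 2 were those of Gm3764, Gm13291, Gm26778, Gm26905, Gm26669, Gm11033, 5031425E22Rik, Gm17705, Gm16973, 1810014B01Rik, Gm11464 and Fam120aos, and all of these but Gm11464 and Fam120aos were also lost without replicate 3. Without microglia replicate 1 the calls of Gm26778, Gm26669, Gm16973, Gm11464 and 1810014B01Rik were lost. Gm26905, Gm26669 and Gm16973 were lost without TAM replicate 1, 3 or 4, Gm11033 without TAM replicate 3 and 1810014B01Rik without TAM replicate 4. Of the 24 that fell, 12 fell in every fit that left out 1 library, and 7 of the 9 that rose did so.

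The host RNA of miR-142, a microRNA of blood and immune cells, was the most abundant of the microRNA hosts. Mir142hg (chromosome 11, 87755577 to 87757270) was at 39.6, 46.9, 30.3, 22.9 and 43.7 TPM in TAMs and at 66.4, 87.8 and 74.9 TPM in microglia. All TAM libraries were lower on TPM, with a log2 fold change of -1.07 (SE 0.23, limma adjusted p = 0.00420), but the groups overlapped after rescaling (-0.37, SE 0.21, adjusted p = 0.183). The row Mir142b, annotated inside it on the other strand, was also lower in every TAM library, at 97.7 to 182 TPM in TAM libraries and 343 to 452 TPM in microglia.

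E130102H24Rik, the host of miR-101a, was at 2.07, 3.43, 2.08, 2.42 and 3.51 TPM in TAMs and at 7.18, 11.3 and 10.6 TPM in microglia. It fell by 1.53 on the log2 scale of TPM (SE 0.22, limma adjusted p = 0.000711) and by 0.94 rescaled, with no overlap. Mir17hg, the host of the miR-17 cluster, which promotes proliferation in many cells, was at 0.357, 1.04, 0.554, 0.651 and 0.910 TPM in TAMs and at 2.03, 3.18 and 2.56 TPM in microglia. Mir17hg reached 2 TPM in no TAM library, so the rule itself places all 3 microglia libraries above every TAM library, and nothing is read from this. Gm26940, a 105-nucleotide transcript around miR-219a-1, a microRNA of oligodendrocytes, was listed at 0 in all TAM libraries and at 47.8, 20.2 and 22.6 TPM in microglia. Its mean over the libraries in the authors' deposited table was 1.41 on the DESeq2 scale, so these values rest on very few reads and little can be read from the zeros. The part of oligodendrocyte RNA in them was not tested.

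Among the snoRNA hosts Snhg6 rose and no other member was called on both scales. Snhg12 was at 26.1 to 112 TPM in TAM libraries and 71.0 to 81.8 TPM in microglia, Snhg20 at 10.2 to 27.8 and 16.2 to 28.5, and Dancr at 2.40 to 4.73 and 3.70 to 6.48. Their groups overlapped, and the rescaled log2 fold changes were 0.25, 0.22 and -0.02. Epb4.1l4aos was at 18.9 to 37.6 TPM in TAM libraries and 23.2 to 27.9 TPM in microglia, with a log2 fold change of -0.03 on TPM and 0.66 rescaled (limma adjusted p = 0.902 and 0.0213). Of the 13 listed snoRNA hosts of every biotype 1 rose, and the host Gas5 was at 202 ± 51.0 TPM in TAM libraries and 227 ± 27.3 TPM in microglia. Snhg18 was at 0.0211 to 0.296 TPM in TAM libraries and 1.918 to 5.217 TPM in microglia, and Snhg11 at 0.5734 to 1.525 and 2.811 to 7.295 TPM. Both stayed under 2 TPM in every TAM library, so no test is given for them.

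Pvt1, the neighbour of the proto-oncogene Myc, was at 7.58, 8.99, 7.66, 8.45 and 15.3 TPM in TAMs and at 8.67, 8.81 and 7.33 TPM in microglia. The groups overlapped on TPM (log2 fold change 0.15, adjusted p = 0.572) and lay apart after rescaling (0.79, SE 0.17, limma adjusted p = 0.00561). The non-member Gm14005, also named Morrbid, an RNA that supports survival of myeloid cells, is from the same list of immune RNAs as AW112010, in which 2 of 4 tested genes rose. It was at 17.01, 23.3, 26.7, 23.5 and 37.1 TPM in TAMs and at 6.72, 10.1 and 9.20 TPM in microglia. It rose by a log2 fold change of 1.43 on TPM (SE 0.24, limma adjusted p = 0.00132) with no overlap.

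Several lincRNAs known from neurons or vessels have no test. 1 member of the neural list was tested, 1700020I14Rik, at 13.3 to 17.8 TPM in TAM libraries and 17.7 to 33.2 TPM in microglia, and it was lower on TPM only (log2 fold change -0.63, limma adjusted p = 0.0191, and 0.05 rescaled, adjusted p = 0.725). Meg3, a maternally expressed imprinted RNA of neurons and endothelium, was at 0.0889, 0.398, 0.416, 1.79 and 10.1 TPM in TAMs and at 7.72, 42.6 and 40.0 TPM in microglia. TAM replicate 5 exceeded microglia replicate 1, and the other TAM libraries were below all microglia. 6330403K07Rik, now annotated as coding, was at 0.109 to 0.786 TPM in TAM libraries and 5.45, 39.0 and 25.8 TPM in microglia, and Rmst, an RNA of neural progenitors, at 0.165 to 1.52 TPM and 3.21, 7.03 and 5.82 TPM.

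Microglia replicate 1 was the lowest microglia library for Meg3, 6330403K07Rik and Rmst. Bvht, known from heart and vessel development, was at 0.180 to 1.25 TPM in TAM libraries and 7.30, 23.3 and 19.1 TPM in microglia. The endothelial (659, 2169 and 1626 TPM), mural (423, 1076 and 917), astrocyte (136, 960 and 648) and oligodendrocyte lists (132, 724 and 355) had the same order of microglia libraries. So did the scaling factors (1.074, 1.463 and 1.339), and the order does not tell these cell types apart. Gm13861, opposite Cald1, a gene of smooth muscle and mural cells, was at 0 to 0.165 TPM in TAM libraries and 6.09, 11.9 and 11.2 TPM in microglia. The part of vessel and glial RNA in these values was not tested. There were 36 members that reached 2 TPM in no TAM library, and the rule then places all 3 of their microglia libraries above every TAM library.

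Miat was at 0.338 to 0.651 TPM in 4 TAM libraries and at 7.40 TPM in TAM replicate 5, and at 0.263, 3.25 and 2.21 TPM in microglia. The groups overlapped. Trp53cor1, known as lincRNA-p21, was at 0.236 to 1.76 TPM in TAM libraries and 2.66 to 3.57 TPM in microglia, and Crnde at 1.13 to 4.78 and 1.27 to 2.78 TPM.

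**Figure D4:**
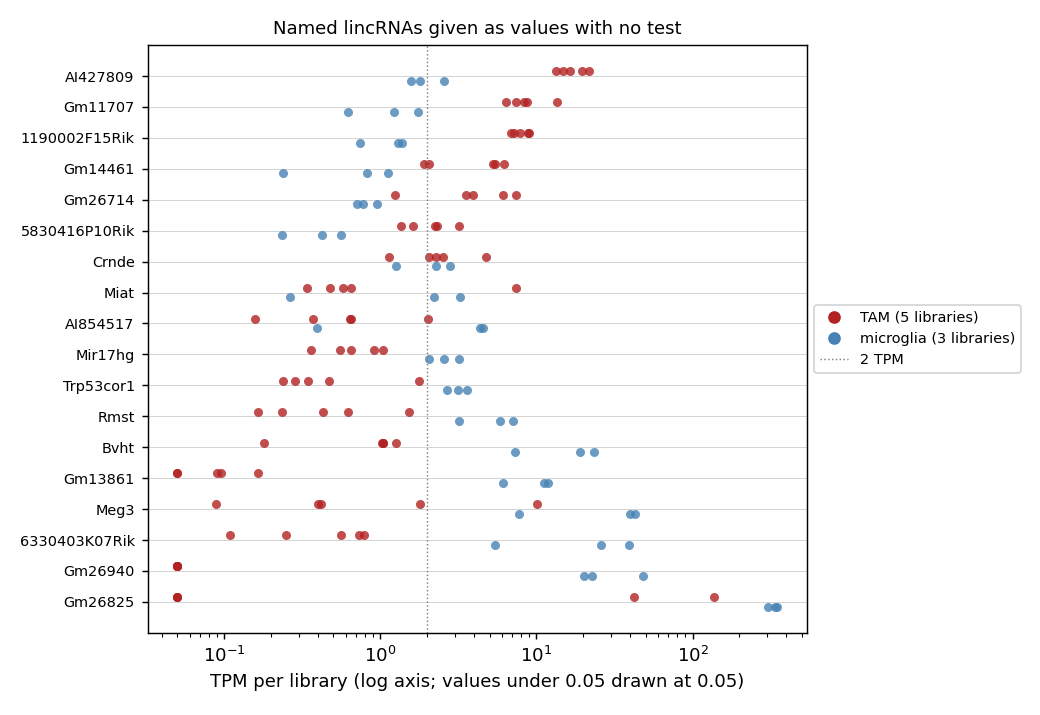
TPM per library (x axis, log, values under 0.05 drawn at 0.05) of 18 named lincRNAs that have no test, ordered by the difference between groups, TAM in red and microglia in blue. AI427809 to 5830416P10Rik lie to the right in TAMs, and Gm26825 and Gm26940 lie at 0 in 3 and 5 TAM libraries.

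Gm26825 was at 0, 0, 0, 42.2 and 136 TPM in TAMs and at 346, 303 and 338 TPM in microglia. Hspa8, its near-identical copy, was at 908, 1047, 1058, 777 and 761 TPM in TAMs and at 1779, 1694 and 2017 TPM in microglia. The 2 TAM libraries with Gm26825 above 0 had the lowest Hspa8. Summed with its copies the value was 947 ± 103 TPM (SD, n = 5) and 2164 ± 182 TPM (SD, n = 3). Gm26619, at 0.387, 65.9, 141, 157 and 174 TPM in TAM libraries and 133, 121 and 119 TPM in microglia, was not called on either scale, and TAM replicate 1 alone was near 0.

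Of the 24 fallen members, 12 had a tested coding gene starting within 10 kb, and the nearest such gene had fallen in 6 and risen in none. The share of all genes that fell was 25.0%.  Gm12319 starts 709 bases from Eno3, an enolase gene, which was at 11.5 ± 2.23 TPM in TAM libraries and 63.2 ± 10.9 TPM in microglia. AI480526 starts 527 bases from the histone methyltransferase gene Setd1b (6.43 ± 1.72 and 19.9 ± 4.58 TPM), 5031425E22Rik 172 bases from Kmt2e (15.3 ± 4.14 and 41.7 ± 10.7 TPM) and Gm11464 119 bases from the coactivator gene Ncoa3 (38.4 ± 5.47 and 82.7 ± 12.7 TPM). Gm26778 overlaps Kctd12 and Gm26669 overlaps Zfp36l1, both on the opposite strand, and Kctd12 was at 188 ± 67.0 and 536 ± 17.8 TPM and Zfp36l1 at 112 ± 31.7 and 340 ± 42.0 TPM.

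In the other 6 pairs the coding gene was not called on both scales. Fam120aos starts 270 bases from Fam120a and fell by 0.97 on the log2 scale of TPM, while Fam120a was at 38.4 ± 2.16 TPM in TAM libraries and 46.1 ± 7.44 TPM in microglia (log2 fold change -0.25 on TPM and 0.46 rescaled, limma adjusted p = 0.0943 and 0.0131). The difference between the members of a pair was not tested. No risen member had a tested coding start within 10 kb.

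**Figure D5:**
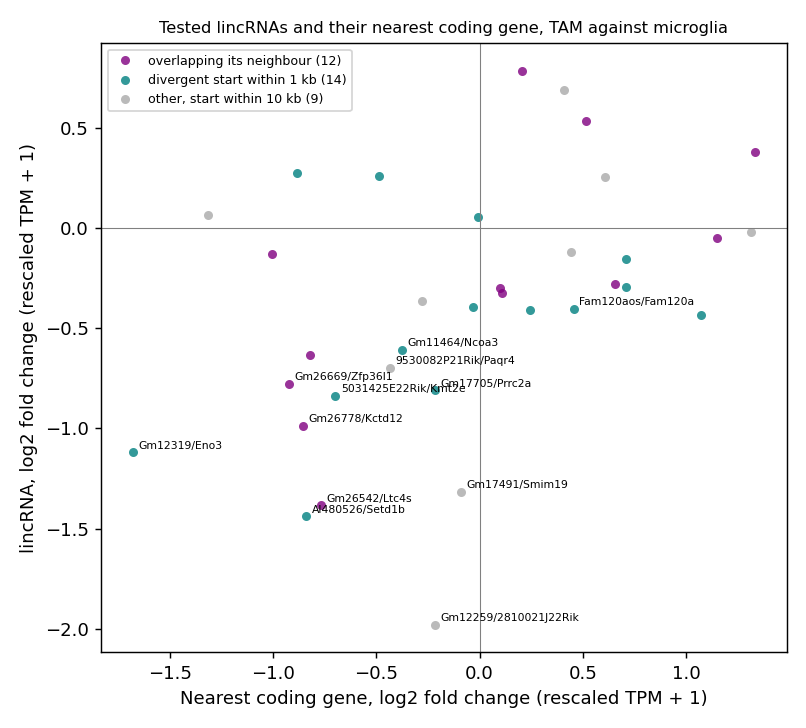
Log2 fold change on rescaled TPM of 35 tested lincRNAs (y axis) against that of the nearest coding gene, if its start lies within 10 kb (x axis). Colours separate 12 overlapping pairs, 14 divergent pairs and 9 others, with names at members that fell. The pairs that share a direction downward include Gm12319 with Eno3 and AI480526 with Setd1b.

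Promoters of 100 members, 250 bases before to 50 after the RefSeq start, could be searched, and the windows of 4 members described above are shown. Their motif matches are in capitals, on GRCm38.p6 and read 5′ to 3′. In AU020206 and 1190002F15Rik the match is to the E2F motif TTCCCGC on the opposite strand, in 5830416P10Rik to the AP-1 motif TGANTCA and the PU.1 motif GAGGAAGT, and in Meg3 to the CRE motif TGACGTCA and, overlapping on both strands, to TATAAA.
AU020206 (minus strand, chr7:75782071-75782370): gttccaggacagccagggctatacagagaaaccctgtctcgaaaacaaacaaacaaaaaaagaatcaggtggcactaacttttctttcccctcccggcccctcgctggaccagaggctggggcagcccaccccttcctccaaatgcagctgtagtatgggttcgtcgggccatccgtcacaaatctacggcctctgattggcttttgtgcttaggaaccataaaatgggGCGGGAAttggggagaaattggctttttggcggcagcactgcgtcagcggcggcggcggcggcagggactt
1190002F15Rik (plus strand, chr6:134928842-134929141): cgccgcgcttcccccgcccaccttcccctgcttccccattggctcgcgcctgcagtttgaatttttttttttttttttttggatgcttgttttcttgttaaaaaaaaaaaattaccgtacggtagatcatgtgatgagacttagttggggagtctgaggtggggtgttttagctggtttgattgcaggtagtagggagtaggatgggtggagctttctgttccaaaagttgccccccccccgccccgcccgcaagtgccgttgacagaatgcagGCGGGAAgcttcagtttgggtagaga
5830416P10Rik (minus strand, chr19:53464747-53465046): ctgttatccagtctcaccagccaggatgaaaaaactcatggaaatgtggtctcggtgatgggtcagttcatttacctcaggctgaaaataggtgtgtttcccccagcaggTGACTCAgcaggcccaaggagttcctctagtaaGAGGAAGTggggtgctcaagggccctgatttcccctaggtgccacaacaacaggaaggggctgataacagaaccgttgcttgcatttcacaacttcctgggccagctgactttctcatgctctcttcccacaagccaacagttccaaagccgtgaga
Meg3 (plus strand, chr12:109540746-109541045): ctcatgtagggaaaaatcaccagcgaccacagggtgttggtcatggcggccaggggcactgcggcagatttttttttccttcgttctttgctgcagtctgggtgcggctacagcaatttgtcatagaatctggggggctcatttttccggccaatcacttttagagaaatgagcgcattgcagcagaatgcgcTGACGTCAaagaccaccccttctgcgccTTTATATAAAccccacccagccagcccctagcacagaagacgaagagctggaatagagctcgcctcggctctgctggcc
Matches on both strands were counted. The CRE motif was in 10 of the 100 member windows and in 1.92% of all 25720 RefSeq windows of that length. Of those 10 members Gm3764 fell, 4 were lower only on TPM, and 5 had no test. The E2F motif was in 8 member windows (4.70% of all windows), PU.1 in 5 (3.34%), AP-1 in 5 (8.0%), the interferon-stimulated response element in 3 (3.48%), TATAAA in 9 (14.2%) and the NF-kB motif in none (0.393%). Member windows held a median of 11.5 CpG sites and all windows 7. A match describes letters only, and some RefSeq starts lie kilobases from those of the deposited table.

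In the authors' deposited table, with its p-values adjusted here by Benjamini-Hochberg, all 9 members that rose were higher, and of the 24 that fell 20 were lower. Over all genes with a p-value there, shares of 17.6% higher and 16.0% lower were called in the authors' deposited table. It comes from the same libraries. In the authors' deposited table the log2 fold change of Gm13391 was 3.57, that of AW112010 2.23 and that of Malat1 -0.80. None of the 30 members that were lower on TPM alone was called lower there.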

How the data were processed

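The table holds one column of TPM per library, which the authors computed (per the file headers), for 5 TAM and 3 microglia libraries, grouped by sample title. It also holds the mean signal, the log2 fold change and the unadjusted p-value of the authors' DESeq2 run, per the file headers. Build mm10 and FastQC are named in the submitters' processing notes. For the aligner, quantifier, annotation release and strandedness, the answer is: not given in the sources used here. TPM summed to 990421 to 997831 per library and keeps no depth, which is therefore unknown, and no counting interval could be made. A further 3 unnamed columns were not used.

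Genes at 1 TPM or more in at least 3 libraries (15262) were tested on log2(TPM + 1) in R 4.3.3 by limma 3.58.1 (empirical Bayes with a trend on the mean), 8 libraries in 1 fit, no covariate, and again on TPM divided by median-ratio factors (0.698 to 1.46). Fold changes on this scale understate those of low genes. Near-identical copies were found with blastn 2.17.0 among GENCODE M21 transcripts. Of the table's genes in M21, 99.8% lay at the same place. On simulated data of 15262 genes the TAM against microglia fit recovered 39.5%, 84.8% and 91.4% of genes changed by a log2 of 1, 2 and 4, with 8 false among 147 calls. There 76, 66 and 58 genes were changed by these amounts, in random directions, and only the TPM fit was run. In the real data 8610 genes were lower and 1254 higher on TPM, so these rates do not describe the calls on both scales.

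The members and gene lists were chosen with earlier results of these data known. Named are the 10 members of highest mean, the 10 largest rises (9 were found) and falls among the tested, the 5 highest and 5 lowest without a test, those on role lists and those at the threshold; neighbours, copies and other falls were named after their values were seen. Alternatives covered scaling, filter, pseudocount, mouse age, a replicate block, a fold threshold, the member threshold and leaving out each library.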

Additional observations from a re-analysis of the deposited data

Results flagged for a closer look

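In 12 of 51 named lincRNAs 1 TAM library stood apart from the other 4 on TPM by Dixon's criterion, which chance meets in about 1 of 20 groups. In 10 of them it was TAM replicate 5, always as the highest: Malat1 at 65.1 TPM, Gm13391 at 47.7, Pvt1 at 15.3, Meg3 at 10.1, Gm3764 at 7.57, 9130204K15Rik at 7.44, Miat at 7.40, Gm26542 at 5.63, Gm17491 at 4.29 and AI854517 at 2.01 TPM. Bvht was lowest in TAM replicate 1, at 0.180 TPM, and Trp53cor1 highest in TAM replicate 2, at 1.76 TPM.

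TAM replicate 5 also had the lowest Yam1 of its group, at 414 TPM, and its scaling factor was 0.971 where the other TAM libraries had 0.698 to 0.756. The criterion was applied to TPM before rescaling, so this difference of scale, shared by all genes of the library, enters the flags of TAM replicate 5. How much of the flags it makes up was not tested.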

How the results depend on the processing

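On rescaled TPM 20 members were higher and 24 lower (all genes 3735 and 3819), with the rescaling on coding genes 20 and 25 (3540 and 4066), and at a log2 fold threshold of 0.5 the counts were 3 and 21 on TPM (507 and 3855) and 3 and 7 on both scales (505 and 1514). The number of members was 381 at 1 TPM and 119 at 4 TPM. Leaving out 1 library gave 7 to 9 members higher on TPM and 7 to 9 on both scales, 31 to 64 lower on TPM and 12 to 30 on both. Over all genes it gave 918 to 1315 higher on TPM and 914 to 1312 on both scales, and 6461 to 9393 lower on TPM and 2628 to 4078 on both. In the other alternatives, the counts stayed within 1.5 times. The causes of these shifts were not tested.

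Some single values changed sign. On rescaled TPM, and with the rescaling on coding genes, the log2 fold change became positive for Snhg12 (0.254 and 0.211), Epb4.1l4aos (0.659 and 0.618), 1700020I14Rik (0.053 and 0.011) and Snhg20 (0.217 and 0.176), and on rescaled TPM for Neat1 (0.003). The difference without a test did so for Gm26885 (0.122 and 0.096) and Miat (0.089 and 0.067). Epb4.1l4aos became 0.16 without the 3 dominant features, Mir6236, Mir6240 and Gm15662, and rescaled Neat1 -0.399 with mouse age as covariate. Leaving out 1 library moved the value on rescaled TPM from -0.242 to 0.141 for Gm26809, from -1.087 to 0.701 for Gm26619, from -0.396 to 0.278 for Neat1, from -0.048 to 0.182 for 1700020I14Rik and from -0.098 to 0.103 for Dancr. On TPM it moved from -1.721 to 0.023 for Gm26619, where TAM replicate 1 gave the change of sign, from -0.178 to 0.061 for Epb4.1l4aos, from -0.015 to 0.216 for Pvt1, from -0.067 to 0.311 for Crnde and from -0.799 to 0.076 for Miat.

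Deviations of same-numbered libraries correlated at 0.15, 0.01 and -0.05, and those of differently numbered libraries from -0.246 to 0.181. With so few libraries these correlations cannot decide whether the numbers pair them. TAM replicates 1 to 3 came from mice of 68, 90 and 61 days and the microglia from 60 days, so same-numbered libraries do not share a mouse. With the replicate number as a block 10 members were higher and 21 lower on both scales (all genes 1103 and 3138), and Pvt1 was -0.03 on TPM. TPM gives no depth, so what depth limits is unknown.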
